A study of Mus musculus with 37 samples.

Results

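The loops described here are CTCF loops whose ends both lie in intergenic DNA. They were taken from the CTCF ChIA-PET loop list by position alone. A loop was a member when its anchor midpoints were 25 to 500 kb apart and when each anchor was more than 10 kb from the body of any protein-coding gene of GENCODE release M21. The list held 27786 loops, of which 20556 had spans of 25 to 500 kb. The rule selected 1283 loops, which were 6.24% of the loops in that span range and 4.62% of all loops. Of the other loops of that range, 6130 had 1 anchor within 10 kb of a gene and 13143 had both.

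CTCF is a zinc finger protein that binds a long, directional DNA motif. Cohesin extrudes chromatin loops and is halted where it meets bound CTCF, most often at a pair of motifs that point towards each other, an arrangement called convergent. Such loops can set off a domain in which a gene meets distant enhancers, and anchors far from genes are known as the borders of regulatory landscapes around developmental genes. ChIA-PET captures the contacts of DNA bound by a chosen protein, and the number of paired-end tags (PETs) that join a pair of anchors is the measure of loop strength used below.

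The study asked what the histone demethylase Kdm1a does in adult neurons of the mouse forebrain. The loop list came from 1 ChIA-PET library of sorted Camk2a+ neuronal nuclei from the hippocampus of tamoxifen-treated male WT mice, in which Camk2a-creERT2 had switched on the nuclear membrane tag Sun1/sfGFP in excitatory neurons. Gene expression came from RNA-seq of whole hippocampus of tamoxifen-treated adult males, with 3 control mice (WT in the labels, littermates without creERT2) and 3 Kdm1a-ifKO mice (Kdm1a f/f with Camk2a-creERT2, so that Kdm1a is lost in forebrain principal neurons and stays in other cells). All mice were on the C57BL/6J background. The 2 assays therefore saw different cell populations: the loops are those of excitatory neurons, and the RNA is that of all hippocampal cells. With 1 library and no replicate, every loop value below describes that library only. Its intervals treat loops or anchor ends as independent draws, although many share anchors, and hold no spread between libraries. The smallest PET count in the list was 3, the authors' own limit.

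The strongest of these loops are shown first by the DNA at their anchors, because the orientation of the CTCF motif at the ends is the property of a loop that its sequence can show. Anchors were searched on both strands for the letters CCANNAGNNGGC, a shortened core of the CTCF motif in which N is any base. The sites below are the best-scoring match in an anchor, taken outside repeats where there was one, read 5′ to 3′ on the strand that carries the pattern, from the GRCm38 (mm10) reference, with the pattern in capitals. A + strand site at a left anchor and a − strand site at a right anchor point into the loop.
Meox1 loop, left anchor, chr11:101813433-101813462, + strand: gtgttgccgCCACCAGGTGGCagtgttggc
Meox1 loop, right anchor, chr11:101905312-101905341, − strand: tgattattaCCACCAGGTGGCgccaccggc
Gli2 loop, left anchor, chr1:118772492-118772521, − strand: ctgtaattaCCAGCAGAGGGCgccggagca
Gli2 loop, right anchor, chr1:119083839-119083868, − strand: caaattacaCCACCAGAGGGCagaagaaaa
Npvf desert, first loop, left anchor, chr6:50679335-50679364, + strand: tcactacttCCACCAGGGGGCagactctac
Npvf desert, anchor shared by both loops, chr6:50806730-50806759, − strand: ccacctcaaCCAGCAGAGGGCggtgaaaga
Npvf desert, second loop, right anchor, chr6:50937301-50937330, − strand: tgcatagcaCCACCAGGGGGCgcagaaagc
Kcnj15 loop, left anchor, chr16:95196809-95196838, + strand: cctactcagCCACTAGGGGGCgccaattgc
Kcnj15 loop, right anchor, chr16:95346071-95346100, − strand: cctgtgtgaCCACTAGGTGGCggtagagtt
Tbx5 loop, left anchor, chr5:119741304-119741333, + strand: tgcctttggCCACTAGAGGGCaccagagac
Tbx5 loop, right anchor, chr5:120102923-120102952, − strand: tctctgcggCCACCAGGGGGCgcacagcac
Usp12 loop, right anchor, chr5:146902986-146903015, − strand: tcatacacaCCAGTAGAGGGCatcagatcc
The Meox1, Kcnj15 and Tbx5 loops carried a convergent pair. The Gli2 loop and the second Npvf desert loop carried 2 sites that read the same way. The Usp12 site and the left Tbx5 site lie in sequence that the reference marks as repetitive, and of the sites shown the Usp12 site alone runs on into the letters atcagatc. The Pmaip1 loop was not read for sequence here. Among the other 14 leading loops, 12 had a match at both ends, of which 9 were convergent, 3 read the same way and 0 were divergent. These anchors were several kilobases wide and 2 of their ends held no match, so a printed site is a match to letters and not a mapped binding site.

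The shared anchor of the Npvf desert is shown with more of its surroundings, as it ended the first of these loops and began the second, and held 1 match to the pattern in both. This is chr6:50806669-50806818 on the − strand of GRCm38.
Shared anchor: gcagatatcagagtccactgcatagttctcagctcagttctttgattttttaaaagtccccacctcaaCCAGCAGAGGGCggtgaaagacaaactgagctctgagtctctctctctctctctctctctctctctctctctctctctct
The match was followed by a simple CT repeat that ran to the end of the stretch.

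PET counts of the intergenic loops resembled those of loops near genes. The median was 5 PETs in the intergenic loops (quartiles 3 and 10), 5 in loops with 1 anchor near a gene (upper quartile 11) and 5 in loops with both anchors near a gene (upper quartile 10). Loops of 50 or more PETs made up 3.90% of the intergenic loops (50 loops), against 4.21% in each of the other classes. At the low end, 362 intergenic loops (28.2%) rested on the minimum of 3 PETs.

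The intergenic loops were longer than loops with both anchors near a gene. Their median span was 169.5 kb (95% order-statistic interval 157.5 to 181.5), against 156.5 kb (153.5 to 162.0) with 1 anchor near a gene, whose interval overlapped, and 109.2 kb (107.1 to 111.8) with both. They also held more short loops than the class with 1 anchor near a gene, with 14.7% against 9.53% at 25 to 50 kb. PET counts were therefore compared within spans. Among loops of 25 to 50 kb, 16.0% of the intergenic loops had 10 or more PETs, below the 21.1% and 26.1% of loops with 1 and with both anchors near a gene. Among loops of 300 to 500 kb, 25.6% of the intergenic loops had 10 or more PETs. This was close to the 25.3% of loops with 1 anchor near a gene, and above the 21.3% with both. At the edges of the rule, the 168 loops whose nearer anchor was 10 to 12 kb from a gene had a median of 6 PETs, and the 202 loops just outside, at 8 to 10 kb, had a median of 4. Intergenic loops of 450 to 500 kb had a median of 4 PETs (70 loops) and those of 500 to 550 kb a median of 6 (48 loops).

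**Figure D1:**
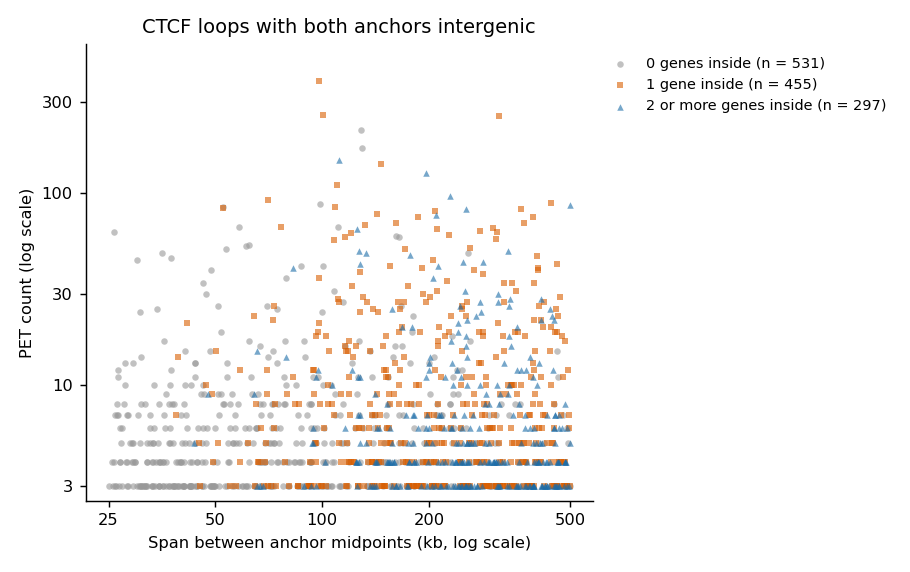
PET count (log scale) against span between anchor midpoints (kb, log scale) for the 1283 loops, 1 point per loop, marked by the number of protein-coding genes inside. Loops without a gene fill the short spans, and the highest point is the Meox1 loop at 383 PETs, which holds 1 gene.

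Single-gene loops supplied most of the strongest contacts. Of the 1283 loops, 531 (41.4%) enclosed no protein-coding gene, 455 (35.5%) enclosed 1, 149 enclosed 2 and 148 enclosed 3 or more. Because both anchors were over 10 kb from any gene, each gene that a loop touched lay wholly within it. The upper quartile of PET counts was 15 in loops with 1 gene, and 29 of the 50 loops with 50 or more PETs held exactly 1 gene. The median PET count was 4 in loops without a gene, 6 with 1 gene, 5 with 2 and 4.5 with 3 or more. The enclosed gene took up a small part of its loop, a median of 18.2% of the span.

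The strongest of the intergenic loops, at 383 PETs, framed Meox1 alone. Meox1 encodes a homeobox factor of the somites, and its loop ran from chr11:101806117-101818756 to chr11:101904597-101915877, a span of 97.8 kb. Meox1 itself was low in control hippocampus, at 2.25, 2.15 and 2.48 TPM (a level scaled by transcript length and library size) in the 3 mice. A loop of 252 PETs framed Gli2, a transcription factor of the hedgehog pathway, over 314.0 kb, and Gli2 stood at 3.68, 3.86 and 4.58 TPM. A loop of 255 PETs and 100.8 kb framed Sec14l1, which encodes a lipid-binding protein and was well expressed at 163.6, 159.7 and 153.5 TPM. Genes of low and of high level were thus both found in loops of more than 250 PETs.

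The other single-gene loops at the top of the list showed the same mixture. Kcnj15, an inward rectifier potassium channel gene, lay in a loop of 142 PETs, and its level was 0.022 ± 0.038 TPM (SD, n = 3). Pmaip1, which encodes the pro-apoptotic protein Noxa, lay in a loop of 111 PETs and reached 2.61 ± 0.46 TPM. Neurog1, a proneural factor of sensory neurons, had a loop of 92 PETs over 70.2 kb and a level of 0.37 ± 0.37 TPM. Tbx5, a factor of heart and forelimb, had a loop of 83 PETs over 362.5 kb and 0 counts in all 3 controls, as in the 3 Kdm1a-ifKO mice. Kcna5, a voltage-gated potassium channel gene, had a loop of 84 PETs and 2.20 ± 0.05 TPM. By contrast, Irf2bpl (85 PETs) stood at 56.3 ± 6.1 TPM and Sh3bp4 (89 PETs), an endocytic adaptor gene, at 25.8 ± 0.5 TPM. Across the 235 genes that were alone in a loop, the share at 5 TPM or more was 56.4% of 117 genes at 3 to 4 PETs, 57.7% of 97 at 5 to 9, 62.3% of 106 at 10 to 49 and 53.6% of 28 at 50 or more, with exact binomial 95% intervals that all overlapped (a gene in several loops counts in each class it has a loop in).

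Multi-gene loops at the top of the list held a keratin cluster and the genes Usp12, Rpl21 and Rasl11a. A loop of 150 PETs over 111.5 kb enclosed the type I keratin genes Krt9, Krt14, Krt16, Krt17 and Krt42, of which Krt9 was at 15.6 ± 1.6 TPM in controls and the others were at 0.18 TPM or less. Loops of 127 and 97 PETs shared a right anchor and enclosed Usp12, a deubiquitinase gene (58.3 ± 2.0 TPM), Rpl21, a ribosomal protein gene (7.92 ± 1.57 TPM) and Rasl11a, a small GTPase gene (30.7 ± 3.7 TPM). Reads of Rpl21 can be split with its many processed copies, so its level is uncertain. The loop with the most genes held 21, most of them late cornified envelope (Lce) genes of the skin, and rested on 3 PETs.

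The median distance of an anchor from the nearest gene was 35.6 kb, and the farthest anchor was 1321 kb away. Overlapping anchors merged into 1699 distinct anchors, of which 529 (31.1%) served 2 or more of these loops and 1043 (61.4%) also ended a loop of another class. Intergenic does not mean free of annotation: 16.1% of the anchor ends overlapped a long non-coding RNA gene, against 12.7% and 9.03% in loops with 1 and both anchors near a gene. Loops were often stacked, since 359 of them (28.0%) lay wholly inside another member, and together they covered 142.9 Mb.

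The 5 anchors in the most loops each joined 7 or 8 of them. Near Foxo6, a forkhead factor gene of cortex and hippocampus, 1 anchor (chr4:120222845-120229843) sent 8 of the intergenic loops to its right and none to its left. These had 3 to 42 PETs, and the anchor's best motif match pointed the same way, on the + strand. The anchor joined 14 loops of the whole list, and the directions of those outside the rule were not read. Foxo6 was enclosed by 14 loops in all and stood at 41.1, 36.3 and 29.2 TPM in controls. Near Polg, an anchor (chr7:79492872-79498688) that joined 12 loops of the whole list sent 7 of the intergenic loops to its right. The strongest had 85 PETs, and none of the 7 held a protein-coding gene. That strongest loop enclosed Mir9-3hg, the host transcript of a neural microRNA, whose level was 31.0, 27.6 and 27.8 CPM (a level scaled by library size only) in controls. The single pattern match of that anchor read on the − strand and lay in repetitive sequence. An anchor near Nrbf2 (chr10:67312706-67317999) had no match to the pattern. Its 8 loops spanned 405.4 to 490.2 kb and together enclosed 5 genes, among them the immediate early gene Egr2. The remaining pair of anchors lay in a gene desert on chromosome 4, described next.

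Gene deserts, taken as gaps of at least 500 kb between protein-coding gene bodies, held relatively few of the loops. There were 657 such gaps, which made up 755.5 Mb. Of these, 113 (17.2%) held at least 1 of the loops, 228 loops in all (17.8% of the 1283). Their median was 4 PETs, against 5 for the other members, and their upper quartiles were 7.25 and 10. The density of distinct anchors fell steadily with gap length, from 3.35 per Mb of DNA beyond 10 kb of a gene in gaps of 20 to 100 kb, to 2.68, 1.61 and 0.889 in longer classes, and to 0.354 in gaps over 1000 kb. Gaps in the assembly and unmappable repeats were not subtracted from these lengths, and their part in the trend was not tested.

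The desert between Matn1 and Ptpru on chromosome 4 (chr4:130955476-131768456, 813.0 kb) held the most loops, 15 loops of 3 to 16 PETs among 7 anchors. All of its loops lay in the middle of the gap, between 297.1 and 533.0 kb from its start, and 2 of its anchors joined 8 loops each. The 6 annotated genes inside it were 5 long non-coding RNAs and 1 small RNA, none above 0.21 CPM in any control mouse. Of its flanking genes, Matn1, a cartilage matrix gene, was at 0.42 ± 0.37 TPM and Ptpru, a receptor phosphatase gene, at 50.5 ± 2.2 TPM.

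The desert between Npvf and Nfe2l3 on chromosome 6 held 7 loops of 4 to 213 PETs, the strongest of them set end to end. A loop of 172 PETs (129.2 kb) and another of 213 PETs (128.9 kb) met at the shared anchor printed above, and a loop of 49 PETs (257.9 kb) spanned both. The 213-PET loop was the strongest of all the loops without a protein-coding gene. Its 2 annotated non-coding genes, G930045G22Rik and Gm31579, had 0 counts in the controls, which per library allows up to 3 counts. Gm44109, in the 172-PET loop, was at 0.32 ± 0.10 CPM. Npvf, a hypothalamic neuropeptide gene, had 0 counts in the controls and Nfe2l3, a stress-response transcription factor gene, was at 7.89 ± 0.46 TPM.

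**Figure D2:**
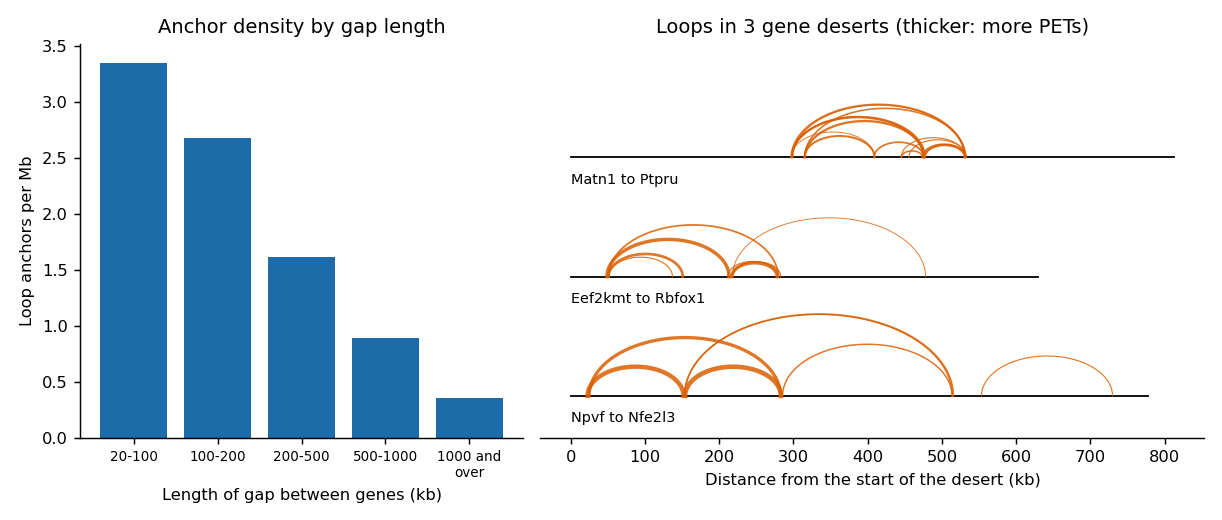
Left, distinct loop anchors per Mb of gap sequence more than 10 kb from a gene (bars), by the length of the gap between protein-coding genes in kb, falling from 3.35 to 0.354. Right, loops of 3 deserts with 7 to 15 loops each drawn as arcs over the distance from the desert's start in kb, with thicker arcs for more PETs: a mesh of 15 arcs between Matn1 and Ptpru, and 2 thick arcs end to end between Npvf and Nfe2l3.

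Other deserts held up to 8 loops. The gap between Eef2kmt and Rbfox1, the latter a neuronal splicing factor gene at 343.3 ± 10.6 TPM, held 8 loops, of which 2 had 59 and 53 PETs. The gap between the receptor gene Olfr1507 and Dad1 held 7 loops of 3 to 42 PETs. It counts as a desert by protein-coding genes alone, as 201 of its 222 other annotated genes were T cell receptor gene segments. The gaps between Fam19a5 and Zdhhc25 and between Cdh26 and Cdh4 also held 7 loops each.

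Among the 531 loops without a protein-coding gene, 219 (41.2%) enclosed a long non-coding RNA gene and 158 (29.8%) touched no annotated gene of any kind. After the Npvf desert pair, the strongest was a loop of 88 PETs between Wnt7b and Ppara, which held the microRNA genes Mirlet7c-2 and Mirlet7b. The poly-A library counted 0.61 ± 0.38 and 0.53 ± 0.22 CPM on these loci in controls, and such a library does not measure mature microRNAs.

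The CTCF pattern was found at the anchors of these loops more often than nearby. Loops were made by CTCF immunoprecipitation and kept only where their anchors overlapped CTCF peaks. A higher share than nearby was therefore built into the list. Of the 2566 anchor ends, 1009 (39.3%, exact binomial 95% interval 37.4 to 41.2) held at least 1 match to CCANNAGNNGGC, against 308 (12.0%, 10.8 to 13.3) of windows of the same length moved 20 kb outward from the loop. The shares in loops with 1 and with both anchors near a gene were 40.6% and 40.4%, with 14.8% and 17.5% in their moved windows. Base composition differed little, with 46.4% GC in the intergenic anchors and 44.8% in the moved windows. Loops that share an anchor count it more than once here, so the intervals are too narrow.

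Matches also differed in kind. In the intergenic anchors 22.6% of 863 distinct matches lay in soft-masked repeats, against 50.0% of 286 in the moved windows. The longer letters CCANNAGNNGGCNTCNGAT, which the Usp12 site carries and which resemble the CTCF-like core of rodent B2 SINE elements, made up 10.2% of the matches in anchors and 22.7% in the moved windows. Counting matches outside repeats only, 32.8% of anchor ends and 6.74% of moved windows had one. Among loops with both anchors near a gene, the repeat share of matches was higher, at 33.5% in anchors.

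Stronger loops had a match more often, and also had wider anchors. The share of ends with a match rose from 30.5% at 3 to 4 PETs to 40.3%, 48.9% and, at 50 or more PETs, 83.0%. In the moved windows it rose as well, from 7.36% to 49 of 100 windows, while the median anchor width went from 1028.5 to 6131.5 bp. Per kilobase searched, anchors of the weakest loops held 0.303 matches and those of the strongest 0.202, against 0.0716 and 0.119 in the moved windows.

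Orientation could be read in 180 loops in which each end held matches on 1 strand only. Of these, 102 (56.7%, 49.1 to 64.0) were convergent, 67 (37.2%) read the same way and 11 (6.11%) were divergent. The moved windows gave 31 such pairs, of which 9 (29.0%, 14.2 to 48.0) were convergent. Left anchors held 429 matches on the + strand and 171 on the −, and right anchors held 159 and 415. The share of convergent pairs was 59.0% and 56.5% in the other classes.

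Short intergenic loops had the lowest share of convergent pairs among the 5 span classes. At 25 to 50 kb, 4 of 25 pairs were convergent (16.0%, exact binomial 95% interval 4.54 to 36.1) and 16 read the same way. At 300 to 500 kb, 35 of 51 were convergent (68.6%, 54.1 to 80.9). In other loops of 25 to 50 kb the share was 46.3% of 400 pairs (41.3 to 51.3), an interval that did not overlap that of the intergenic loops, and at 300 to 500 kb it was 64.5%. The 25 short pairs include loops that share anchors, and no test was run on them.

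**Figure D3:**
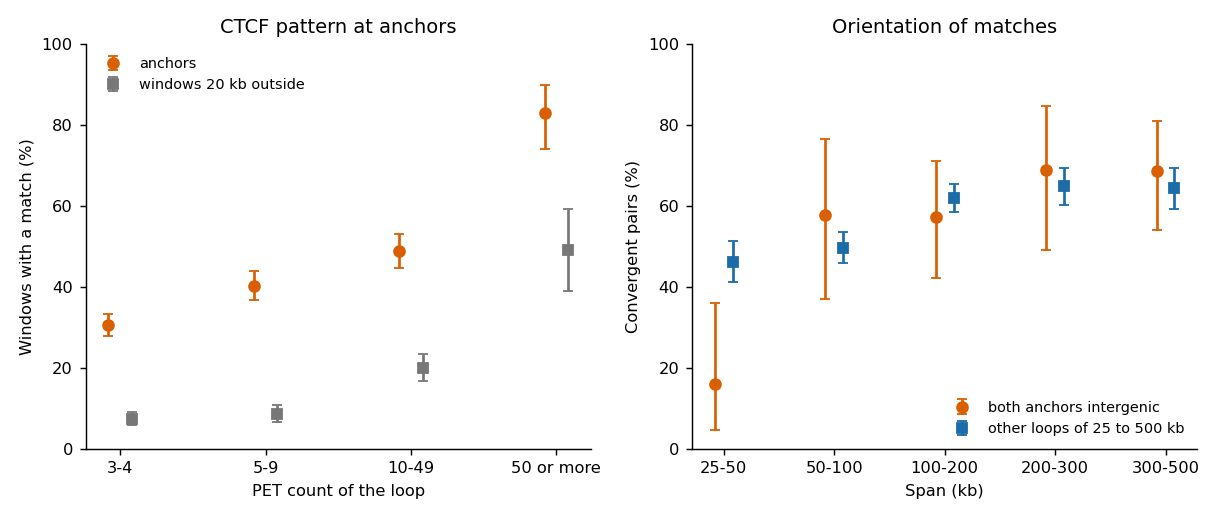
Left, percentage of loop ends with at least 1 match to the CTCF pattern (circles) and of equal windows 20 kb outside the loop (squares), by PET count. Right, percentage of convergent pairs among loops with matches on 1 strand at each end, by span in kb, for intergenic loops (circles, 16.0% at 25 to 50 kb) and other loops of 25 to 500 kb (squares). Error bars are exact binomial 95% intervals.

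The 1283 loops enclosed 865 distinct protein-coding genes, 3.94% of the 21951 annotated, and 580 of them (67.1%) were also inside another loop of 25 to 500 kb. Of the 865, 854 were in the count table. In control hippocampus 428 of these (50.1%, exact binomial 95% interval 46.7 to 53.5) had a mean of 5 TPM or more, against 52.5% of all protein-coding genes, 58.4% of those inside other loops of that span only and 48.1% of those inside none. The share was 57.02% (50.4 to 63.4) for the 235 genes that were alone in a loop and 47.5% (43.5 to 51.5) for those enclosed only with other genes. The 3 control libraries gave 431, 429 and 434 genes at 5 TPM or more when taken one by one. At the other end, 138 enclosed genes (16.2%) had no count in any control, against 20.3% of all protein-coding genes. RNA of whole hippocampus cannot separate fewer cells expressing a gene from less RNA per cell.

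The 10 enclosed genes with the highest levels in controls ranged from 484.7 to 1358 TPM. Cplx2, which encodes the synaptic vesicle protein complexin 2, led at 1369, 1376 and 1330 TPM in the 3 controls and was alone in a loop of 3 PETs. Mbp, for myelin basic protein of oligodendrocytes, followed at 1130, 1095 and 1106 TPM, although the loop was mapped in sorted neurons. Rtn1, a reticulon gene (878.7 ± 36.9 TPM), Rnf112 (844.4 ± 23.4), Nsg2, of endosomal trafficking (715.0 ± 34.4), Scamp5, of synaptic vesicles (535.6 ± 14.2), Nap1l5 (532.6 ± 39.3), Chn1, a Rac regulator (522.4 ± 2.8), Chst1, a keratan sulfotransferase gene (498.9 ± 33.7) and the neurofilament gene Nefl (484.7 ± 13.2) completed the first 10. The highest loop around these 10 genes had 41 PETs, at Nefl. The highest of the enclosed non-coding genes was Malat1, a nuclear RNA, at 348.2 ± 55.5 CPM, then Mir9-3hg at 28.8 ± 1.9.

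Developmental transcription factors made up the list with the highest share of enclosed genes. The list was drawn by name patterns for homeobox, Pax, bHLH, forkhead, T-box, Gata, Klf, Gli and related families. These patterns missed some members of the families, among them the enclosed Meox1 and Tcf15. Of the 313 annotated genes that the list did hold, 47 (15.0%) lay inside an intergenic loop, against 3.94% of all protein-coding genes, and 22 of the 47 were alone in 1. They included 9 Hoxc genes of 1 cluster, enclosed together by a single loop of 5 PETs, so the members are not independent. Of the 47, 34 were below 1 TPM in controls, 16 had no count there, and 9 reached 5 TPM. Gli2, Neurog1 and Tbx5 were each alone in a loop of 50 or more PETs, as was Meox1, outside the list. Atoh8 and Foxa2 were each alone in at least 1 loop, and the strongest loops around them had 67 and 66 PETs. Among those expressed, Neurod6, a bHLH factor of excitatory neurons, led at 375.2 ± 14.1 TPM, followed by the Notch-responsive factor Hey1 (56.9 ± 3.2), Foxo6 (35.5 ± 6.0) and Hes1, a second Notch effector (20.3 ± 3.1). Emx1, a cortical patterning factor at 19.01 ± 2.25 TPM, was enclosed by 12 loops of up to 44 PETs.

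The other gene lists ranged to both sides of the share for all genes. Secreted ligands were enclosed in 18 of 214 cases (8.41%), with the neuropeptide gene Npy (340.6 ± 18.8 TPM), the cytokine gene Il33 (80.0 ± 1.2), Nts, for neurotensin (21.4 ± 4.8) and Ifngr1, for an interferon gamma receptor chain that the list's name pattern took in (21.11, 21.03 and 20.85 TPM in the controls), at the top. Neuronal channels and transmitter receptors were enclosed in 23 of 291 cases (7.90%), led by the potassium channel genes Kcnc4 (86.0 ± 10.7 TPM) and Kcnf1 (81.1 ± 6.6), the anoctamin gene Ano3 (79.7 ± 8.5) and Kcna2 (65.7 ± 11.1). Clustered secreted and epithelial genes reached 36 of 623 (5.78%). Among the 7 lists other than cell type markers, the lowest shares were those of neuronal adhesion and guidance genes (4 of 254, 1.58%), chemosensory receptor clusters (23 of 1480, 1.55%) and Zfp zinc finger genes (9 of 459, 1.96%). The median gene body was 98.7 kb in the adhesion list, 6.22 kb in the chemosensory list, 17.3 kb in the Zfp list and 8.08 kb in the transcription factor list, beside 17.4 kb over all protein-coding genes. The position rule also asks for anchors over 10 kb from any protein-coding gene, so the spacing of genes enters these shares. The parts of gene length and of spacing were not tested, and the shares of these lists inside other loops are not given here. The 4 adhesion and guidance genes were Sema7a (178.1 ± 12.2 TPM), Igsf11 (32.1 ± 0.6), Ntn4 (6.31 ± 0.83) and Cdh17, which had 0 counts. Of the 20 enclosed chemosensory genes in the count table, 0 reached 5 TPM.

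**Figure D4:**
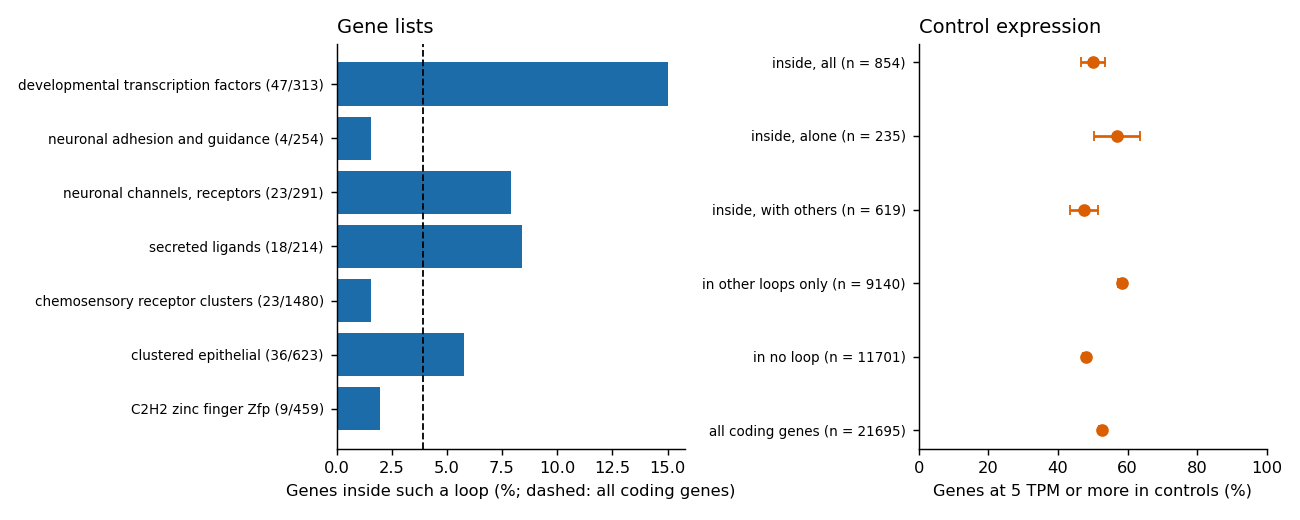
Left, percentage of each gene list that lay inside an intergenic loop (bars, with enclosed and annotated numbers), beside the 3.94% of all protein-coding genes (dashed line). Right, percentage of counted genes with a control mean of 5 TPM or more, with exact binomial 95% intervals, for genes inside intergenic loops (50.1%) and other sets of protein-coding genes.

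The loops were mapped in WT neurons only, so the Kdm1a-ifKO samples bear on the enclosed genes and not on the loops. Kdm1a fell in the Kdm1a-ifKO mice, from 61.3, 62.2 and 60.8 TPM to 30.2, 28.7 and 29.5 (log2 fold change −1.07 ± 0.06 SE, edgeR adjusted p = 6.24e-08). Ctcf did not pass the test (68.6 ± 1.5 against 68.3 ± 4.0 TPM, adjusted p = 0.916). Over all 16799 genes of any biotype tested with edgeR's quasi-likelihood method, 6.04% were higher and 2.82% lower in Kdm1a-ifKO at an adjusted p under 0.05.

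Of the 865 enclosed protein-coding genes, 571 passed the filter on low counts. Among these, 48 (8.41%) were higher and 23 (4.03%) lower, beside the 6.04% and 2.82% over all genes tested, and their median log2 fold change was 0.00. With a fold change beyond 0.5 on the log2 scale, 22 of the 571 rose and 4 fell, beside 530 and 47 of all 16799 genes tested. Of the 185 genes tested that were alone in a loop, 16 (8.65%) rose and 8 (4.32%) fell. With 107 tested genes of other biotypes, of which 2 rose and 1 fell, the enclosed genes called were 50 higher and 24 lower. These were 7.37% and 3.54% of the 678 enclosed genes tested. The 6.04% and 2.82% also include all biotypes, so these shares are the like comparison, and the protein-coding ones are not. Leaving out Kdm1a-ifKO mouse 1 or 3 brought the lower count to 10 in each case, and leaving out mouse 3 brought the higher count to 30. The shares over all genes with these mice left out are not given here.

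Npr1, which encodes a natriuretic peptide receptor, rose most among the enclosed genes. Its levels were 4.32, 5.23 and 5.69 TPM in controls and 28.6, 24.8 and 32.5 TPM in Kdm1a-ifKO (log2 fold change 2.48 ± 0.13 SE, edgeR adjusted p = 2.91e-07). Its loop had 3 PETs and held 19 genes. Inhbb, for an inhibin and activin subunit, rose from 7.70, 8.88 and 6.45 TPM to 17.9, 17.5 and 17.6 (1.19 ± 0.11, adjusted p = 1.11e-05). It was alone in at least 1 of its 3 loops, which had up to 10 PETs.

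Rassf10, a Ras association domain gene, rose from 0.90, 1.49 and 0.61 TPM to 4.33, 3.33 and 4.50 (2.004 ± 0.278 on the log2 scale, edgeR adjusted p = 0.000502). It was alone in at least 1 of its 3 loops, which had up to 20 PETs. Chrna3, a nicotinic receptor subunit gene, Tcf15, a bHLH factor gene of paraxial mesoderm, Rhbdf1, an inactive rhomboid gene, Pawr, a pro-apoptotic regulator gene, Mettl21c, a methyltransferase gene of muscle, and the non-coding Gm7932 also rose, by 1.10 to 1.79 on the log2 scale. Mettl21c lost its call with DESeq2 and with 3 of 6 mice left out. Gm13713, which overlaps Lrrc55, was the only gene among the 10 largest changes that fell, by 1.30 on the log2 scale, and lost its call under 6 of 10 alternatives. The strand setting of the counting was not stated, so reads of Gm13713 and Lrrc55, or of Npr1 and Gm16048, cannot be told apart.

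**Figure D5:**
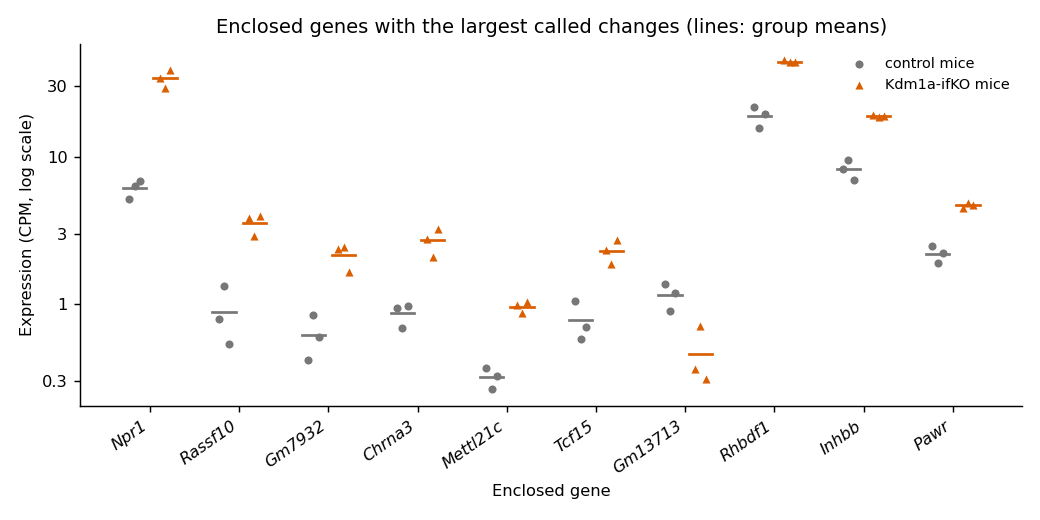
Expression in CPM (log scale) of the 10 enclosed genes with the largest called changes, 1 point per mouse, for 3 control (circles) and 3 Kdm1a-ifKO mice (triangles), with group means as lines. Of the 10 genes, 9 were higher in Kdm1a-ifKO. The genes were chosen by their calls, so the separation of the groups follows from that choice, as for all 74 enclosed genes called.

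Of the 8 tested protein-coding genes in the 10 loops with the highest PET counts, 1 was called, beside the 6.04% higher and 2.82% lower over all genes tested. This was Krt9, at 15.6 ± 1.6 TPM in controls and 21.5 ± 2.6 in Kdm1a-ifKO (log2 fold change 0.46 ± 0.12 SE, edgeR adjusted p = 0.0268), and it lost its call when any of 4 of the 6 mice was left out. Meox1 stood at 3.03, 3.03 and 2.02 TPM in Kdm1a-ifKO (adjusted p = 0.639), and its groups overlapped. Gli2 gave 0.22 ± 0.14 (adjusted p = 0.365) and Sec14l1 0.00 ± 0.05 (adjusted p = 0.977). Tbx5, Neurog1 and Kcnj15 were too low to be tested.

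The calls in the gene lists stand beside the same 6.04% and 2.82%, and rest on few tested genes each. Of 15 tested members of the developmental transcription factor list inside these loops, 0 rose and 1 fell. The latter was Neurod6, from 360.0, 377.7 and 387.8 TPM to 322.5, 274.1 and 287.6 (−0.36 ± 0.07 SE, edgeR adjusted p = 0.00419). Tcf15, an enclosed bHLH gene that the list's name patterns did not take in, rose (1.56 ± 0.28, adjusted p = 0.00309). Of 20 tested channel and receptor genes, 3 rose and 1 fell, with Kcnc4 higher (0.35 ± 0.08, adjusted p = 0.017) and Ano3 lower (−0.42 ± 0.08, adjusted p = 0.00632). Of 12 tested secreted ligands, 2 rose and 2 fell, the latter being Npy (−0.31 ± 0.07, adjusted p = 0.0106) and Nts (−0.83 ± 0.22, adjusted p = 0.041). Sema7a was the called gene among 3 tested adhesion and guidance genes (−0.24 ± 0.06, adjusted p = 0.0176). Among the genes with the highest levels, Nefl fell (−0.26 ± 0.05, adjusted p = 0.00475) and Nap1l5 fell (−0.22 ± 0.07, adjusted p = 0.0491). Kcnc4, Nts, Sema7a and Nap1l5 lost their calls when some mice were left out.

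Some cell type markers were called in the same libraries, beside the 6.04% higher and 2.82% lower over all genes tested. Of 6 microglia markers 3 rose, and their summed level was 363 to 392 TPM in controls and 415 to 524 in Kdm1a-ifKO. Of 7 astrocyte markers 2 rose (1850 to 2070 against 2110 to 2290 TPM). Of 8 excitatory neuron markers 1 rose and 1 fell, the latter Neurod6 (6570 to 7160 against 6400 to 6960). Interneuron markers gave 1530 to 1670 against 1600 to 1630 TPM (1 of 7 fell), oligodendrocyte markers 3070 to 3440 against 2860 to 3700 (0 of 8 called), endothelial markers 175 to 189 against 168 to 216 (0 of 5) and choroid plexus and ependyma markers 65.9 to 156 against 59.8 to 89.0 (1 of 5 tested rose). None of the markers of any list was at 0 in controls, and their part in the changes of the enclosed genes was not tested.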

How the data were processed

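CTCF ChIA-PET was done on 1 library of sorted neuronal nuclei and RNA-seq on 3 control and 3 Kdm1a-ifKO hippocampi, 1 mouse per library. The authors called the loops with ChIA-PIPE on mm10 and deposited, for each loop, its PET count as whole-number counts, keeping loops of at least 3 PETs whose anchors overlapped CTCF peaks. No input library was used for those peaks, and more PETs widen the merged anchors. The RNA-seq file holds the raw read counts per gene that the authors deposited, made with cutadapt 1.18, HISAT2 2.1.0 and HTSeq 0.11.1 per the submitters' processing notes. Library totals ran from 18985542 to 19469947 counts.

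Gene bodies came from GENCODE M21. TPM was computed here from counts and merged exon lengths. Differences were tested on the whole table with edgeR 4.0.16 (filterByExpr, TMM, quasi-likelihood, two-sided, Benjamini-Hochberg) in R 4.3.3, with DESeq2 1.42.0 as an alternative, and the scripts were checked on simulated data. The p-values measure the spread between mice. Replicate numbers did not pair the mice. Motif letters and soft-masking were read from the RefSeq GRCm38.p6 genome. The loops, the gene lists and the tests were chosen with earlier results of these data known. Genes were named by rule: those in the 10 loops with the most PETs overall and in the 10 with 1 gene, the 10 highest control levels, the 10 largest called changes, the 5 highest non-coding genes and up to 4 members of each list by control level. The rule also took the 5 anchors in the most loops and the 5 deserts with the most loops. Other genes named (such as Emx1, Foxa2 and Atoh8) and the loops without a gene were chosen after their values were seen. Alternatives changed the PET, distance, span, desert, motif, expression and count settings and left out each mouse in turn.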

Additional observations from a re-analysis of the deposited data

How the results depend on the processing

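The number and makeup of the loops followed the position rule. With at least 5 PETs 699 loops were left, with a median of 9 PETs and 37.8% without a gene, and with at least 10 PETs 324, with a median of 19, 27.8% without a gene and 11.4% in deserts. Anchors over 5 kb from a gene gave 2036 loops (9.90% of the span range, 31.5% without a gene, 12.0% in deserts), over 20 kb 734 (3.57%, 55.4%, 27.1%) and away from genes of any biotype 507 (2.47%, 20.5% in deserts). Spans of 25 to 400 kb gave a median of 150.6 kb and 44.8% without a gene, and deserts of at least 1000 kb held 6.70% of the loops. The share of ends with a motif match was 18.0% with a stricter pattern, 51.6% with a looser one, 45.3% in 2 kb around the midpoint and 32.8% outside repeats, and the convergent share was 66.7% with the stricter pattern (28 of 42 pairs), 52.6% with the looser one (131 of 249), 50.0% in 2 kb around the midpoint (118 of 236) and 60.3% outside repeats (79 of 131). The share of enclosed genes expressed was 64.4% at 1 TPM, 62.6% at 1 CPM and 55.6% with anchors over 20 kb away, the last chosen after seeing the data, as were matches outside repeats. Without a filter on low counts 79 enclosed genes were higher and 53 lower, and with DESeq2 44 and 29. Leaving out each mouse in turn gave 30 to 43 higher and 10 to 29 lower. A replicate block gave 36 higher and 17 lower. The shares over all genes under these settings are not given here, so these counts describe the settings and not the enclosed genes. Replicate numbers did not pair the mice (correlations of deviations -0.0326, -0.0911 and -0.148). Of the 590 values of 59 named genes under alternatives, 529 kept their direction and side of the threshold, 30 lost a call, 12 gained one and 19 changed sign. Those 19 came from leaving out a mouse and belonged to 10 genes that were called neither before nor after, whose log2 fold changes with each mouse left out ranged as follows: Sec14l1 -0.0319 to 0.0461, Pmaip1 -0.0514 to 0.186, Rpl21 -0.172 to 0.103, Nsg2 -0.0186 to 0.0579, Chst1 -0.016 to 0.0774, Mir9-3hg -0.0844 to 0.0168, Gm5421 -0.0816 to 0.0587, Foxo6 -0.00937 to 0.223, Il33 -0.0986 to 0.0263 and Cyp2j6 -0.059 to 0.0354. The cause of these differences was not tested. With a single ChIA-PET library, no loop value holds the spread between libraries.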
